A study of Mus musculus with 10 samples.

Results

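The genomic positions of Brg1 and Rad21 were compared in wildtype (WT) AB17 cells. The members were the ChIP-seq summits of either protein on the 19 autosomes that had a summit of the other within 1 kb. By this rule 22505 of 100056 Rad21 summits and 22315 of 81227 Brg1 summits were members, and merged into places they formed 18451 loci. The 8 peak lists of the series held 808182 autosomal summits in all. A summit is the position of the highest signal in a peak, and it was counted as "at a start" within 2 kb of any annotated transcript start and as "away from starts" otherwise.

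AB17 is a line of immortalized primary hepatocytes of C57BL/6 origin with the genotype Arid1a fl/fl, in which loxP sites flank part of Arid1a. The cells carried SV40 large T antigen and an activated H-Ras, and those used here had received the control adenovirus Ad-GFP, which leaves Arid1a intact. The Brg1 and the Rad21 list each came from 1 library of this single line, without replicates, and their depth is unknown, so all intervals cover counting error only and no p-value is given. Peak lists of Ctcf, Arid1a, H3K27me3 and H3K9me3 from the same WT cells were used beside them.

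Brg1, encoded by Smarca4, is the ATPase of the SWI/SNF complex, which uses ATP to slide or evict nucleosomes and so opens promoters and enhancers. Rad21 is the kleisin subunit that closes the cohesin ring, which holds sister chromatids together and extrudes chromatin loops. Loop extrusion stops where Ctcf is bound, and cohesin is also known to be loaded or held at active starts.

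The reference sequences below show the ground on which the members lay, with summits at starts first and those away from starts last. They were read from the plus strand of mm10 (GRCm38), spanned 40 bp on each side of a summit or of a pair of summits, and lay in introns or between genes. Capitals mark exact matches to the searched motifs, namely the Ctcf core (Myc, Ccn2 and Ppara, where it is read from the opposite strand), the Sp motif (Smc3) and the AP-1 motif (Col1a1, Btg1 and Krt8). The Actb sequence, under the highest start-proximal Brg1 peak among the leading pairs, is GC-rich and held no match. These examples were chosen after their matches were seen, and 44 of 311 such windows around named genes held a match.
Myc Rad21 chr15:61983399-61983479: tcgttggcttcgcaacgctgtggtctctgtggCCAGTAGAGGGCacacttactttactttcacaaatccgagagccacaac
Smc3 Brg1 chr19:53600561-53600641: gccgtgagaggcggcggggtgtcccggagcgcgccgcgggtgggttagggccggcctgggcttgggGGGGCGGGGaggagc
Col1a1 Brg1 chr11:94936805-94936885: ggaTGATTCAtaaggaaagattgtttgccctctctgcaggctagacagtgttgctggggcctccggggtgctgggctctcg
Actb Brg1 chr5:142906070-142906150: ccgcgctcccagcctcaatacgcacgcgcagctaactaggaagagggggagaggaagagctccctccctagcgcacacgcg
Ccn2 both chr10:24630772-24630889: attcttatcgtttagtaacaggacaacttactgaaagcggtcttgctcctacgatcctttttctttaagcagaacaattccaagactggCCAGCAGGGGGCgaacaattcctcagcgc
Ppara Rad21 chr15:85709453-85709533: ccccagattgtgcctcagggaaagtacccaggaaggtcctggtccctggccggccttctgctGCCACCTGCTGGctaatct
Btg1 Brg1 chr10:96629036-96629116: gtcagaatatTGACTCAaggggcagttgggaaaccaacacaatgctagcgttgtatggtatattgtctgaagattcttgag
Krt8 Brg1 chr15:102016249-102016329: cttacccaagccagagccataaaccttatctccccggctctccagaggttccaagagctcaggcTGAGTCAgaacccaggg

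To examine how often the proteins shared a site, partners within 1 kb were counted in both directions and set against the same count after the partner list had been moved by 10, 20, 30, 40 and 50 kb to either side. At starts, 10599 of 28290 Rad21 summits (37.5%, 95% Wilson interval 36.9 to 38.0) had Brg1 within 1 kb, against 12.6% (range 12 to 13.7 over the 10 displacements), a ratio of 2.98. Away from starts 11906 of 71766 Rad21 summits (16.6%, 16.3 to 16.9) had Brg1, against 10.8% (10.5 to 11.0), a ratio of 1.54. In the other direction 10615 of 21444 Brg1 summits at starts (49.5%, 48.8 to 50.2) had Rad21, against 16.8% when displaced. Away from starts this share was 19.6% (19.3 to 19.9) of 59783 Brg1 summits, against 12.4%. Shared loci were divided between 8738 at starts and 10542 away, with some loci holding summits of both kinds. More sites were thus shared away from starts by number, while the excess over displaced positions was 24.9 percentage points at starts and 5.78 away. A displaced list no longer follows the starts, near which 26.4% of all Brg1 and 28.3% of all Rad21 summits lay. The excess at starts therefore includes the preference of each list for starts, and the part of that preference was not tested.

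**Figure D1:**
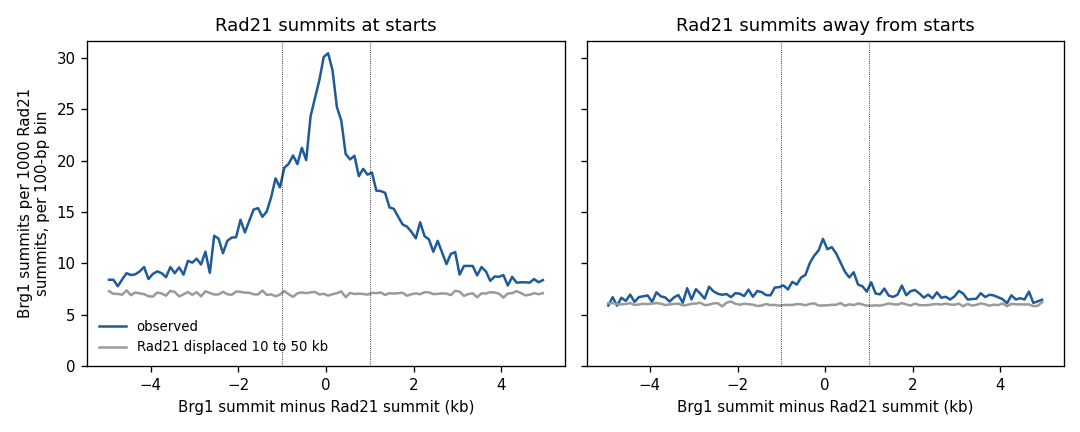
Brg1 summits per 1000 Rad21 summits in 100-bp bins, by distance from the Rad21 summit in kb, at starts (left) and away from starts (right). The blue line is observed, and dotted lines mark the 1 kb limit. The grey line, labelled Rad21 displaced, is the mean after the Brg1 list was moved by 10 to 50 kb. The central bins hold 30.3 at starts and 11.9 away, over displaced levels of 6.96 and 5.92.

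The partners were close but seldom at the same base. The median distance from a shared Rad21 summit to the nearest Brg1 summit was 342 bp (quartiles 158 and 604) at starts, where 16.2% lay within 100 bp. Displaced pairs had a median of 452 bp and 11.1% within 100 bp. Away from starts the median was 374 bp, with 14.4% within 100 bp, against 459 bp and 11.0% when displaced. The profile around Rad21 was broad at starts, where 19.0 Brg1 summits per 1000 were still found in the bins at 1 kb and 8.40 at 5 kb. Away from starts it fell to 7.56 at 1 kb and 6.19 at 5 kb. The 1 kb limit therefore passed through a continuum: 564 start-proximal Rad21 summits had their nearest Brg1 summit at 900 to 1000 bp, just inside the limit, and 528 had it at 1000 to 1100 bp, just outside. Away from starts these counts were 739 and 764.

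Next, the starts of the 20807 autosomal protein-coding genes were classed by their summits. Brg1 was found within 2 kb of 41.4% of them and Rad21 within 2 kb of 52.4%, and 32.7% had both. A pair at most 1 kb apart was found at 6026 starts (29.0%). Of the starts with Rad21, 62.3% (61.4 to 63.2) had Brg1, against 18.4% (17.7 to 19.2) of the starts without Rad21. In the best pair of each start the Brg1 summit lay a median of 160 bp downstream of the outermost annotated start and the Rad21 summit 200 bp downstream, and 62.2% and 63.6% of them were on the transcribed side. Any other annotated start of a gene lies downstream of its outermost one. Over all summits, 58.0% of Brg1 and 59.6% of Rad21 were downstream at starts with the partner. At starts without the partner the shares were 55.3% and 56.0%, so a downstream position was not particular to pairs. Within a pair neither protein led, since Brg1 minus Rad21 along the direction of transcription had a median of -10 bp.

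The kind of promoter moved with this co-occupancy. Both proteins sat together at 4.54% of starts with a CpG ratio (observed over expected CpG in 1 kb) under 0.3, at 22.5% of those from 0.3 to 0.6 and at 48.5% of those of 0.6 or more, which are CpG islands in the main. Among CpG-rich starts, 70.0% of those with Rad21 had Brg1 against 45.5% of those without, and among CpG-poor starts these shares were 33.0% and 7.48%. Starts with an opposite start within 1 kb, as at head-to-head gene pairs, had both proteins in 51.8% of 2321 cases, against 26.1% of the others. At starts with an H3K27me3 summit, the Polycomb mark of silenced genes, the pair was found at 12.6% of 5019, against 34.2% of 15788 without the mark. CpG content, promoter pairing and H3K27me3 move together across genes, and their separate parts were not tested.

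Peak height was related to sharing most clearly on the Brg1 side. At starts, 45.4% of Brg1 summits with a −log10 q under 2 had Rad21 within 1 kb, against 17.9% when displaced. This reached 71.9% (69.7 to 74.0) of 1657 summits from 5 to 10, against 19.0%. In the class of 10 or more it was 74.7% (65.2 to 82.4) of 95 summits, against 26.5%. The ratio over displaced positions was 3.8 in the class from 5 to 10 and 2.8 in the class of 10 or more. Away from starts it went from 19.7% under 2 to 44.8% (42.2 to 47.4) of 1426 summits from 5 to 10, against displaced shares of 13.4% and 17.9%. The 22 highest Brg1 peaks away from starts, of 10 or more, had Rad21 in 18 cases (81.8%, 61.5 to 92.7), against 24.5% when displaced. On the Rad21 side the share away from starts changed little with height (15.5% under 2, 17.4% at 10 or more). The displaced share there fell from 12.3% to 9.34%, so the ratio over displaced positions went from 1.26 to 1.87. For Rad21 at starts the share peaked at 46.4% in the class from 5 to 10 and was 38.7% in the class of 10 or more. The median −log10 q of the Brg1 list was 2.56, with 3.94% of peaks at 5 or more, and in the Rad21 list 25.9% reached 5. The −log10 q depends on the depth of a library, so the values of both lists given side by side below do not say which protein was more abundant at a site.

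**Figure D2:**
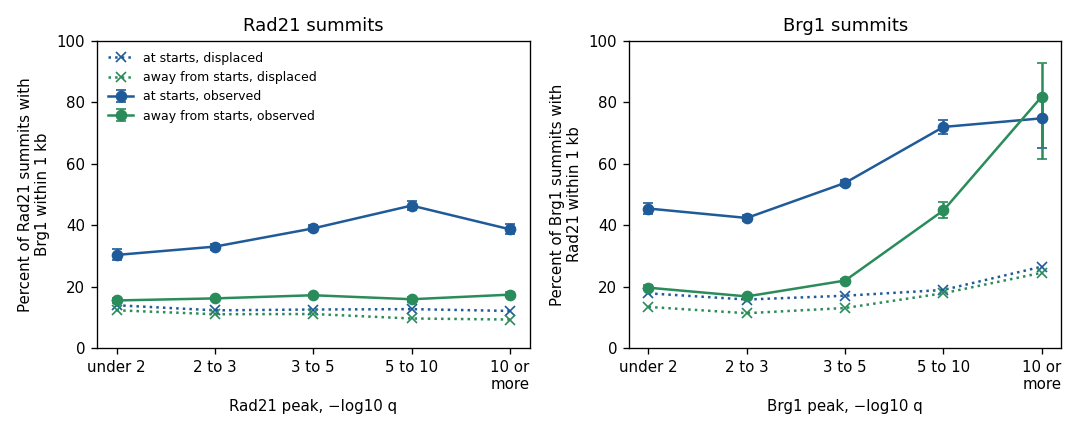
Percent of Rad21 summits with Brg1 within 1 kb (left) and of Brg1 summits with Rad21 within 1 kb (right), by the −log10 q of the summit itself. Points with 95% Wilson intervals are observed, crosses on dotted lines are the displaced means, blue is at starts and green away from starts. The Brg1 share away from starts goes from 19.7% (displaced 13.4%) in the lowest class to 81.8% (displaced 24.5%) in the highest, which holds 22 summits.

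To see which other proteins went with the shared sites, the Rad21 summits were divided by Ctcf and Arid1a summits within 1 kb. Arid1a, the SWI/SNF subunit that binds DNA through its ARID domain, separated them most. Away from starts, 43.0% (41.7 to 44.4) of 4904 Rad21 summits with Arid1a but no Ctcf had Brg1, and 1717 of 4292 (interval 38.5 to 41.5%) with both. Only 12.4% of 31809 with Ctcf alone and 13.5% of 30761 with neither had Brg1, with ratios over displaced positions of 1.33 and 1.25. At starts the shares were 62.7% with Arid1a alone, 67.1% with both, 25.7% with Ctcf alone and 23.0% with neither. Even so, sites with Ctcf alone or with neither protein held 67.8% of the shared summits away from starts, because they were far more numerous. Arid1a was at 55.6% of the shared and 17.7% of the unshared Rad21 summits at starts, and at 32.2% and 8.97% away. Ctcf differed less, at 59.0% of shared and 53.2% of unshared Rad21 summits at starts and at 47.5% and 50.9% away.

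**Figure D3:**
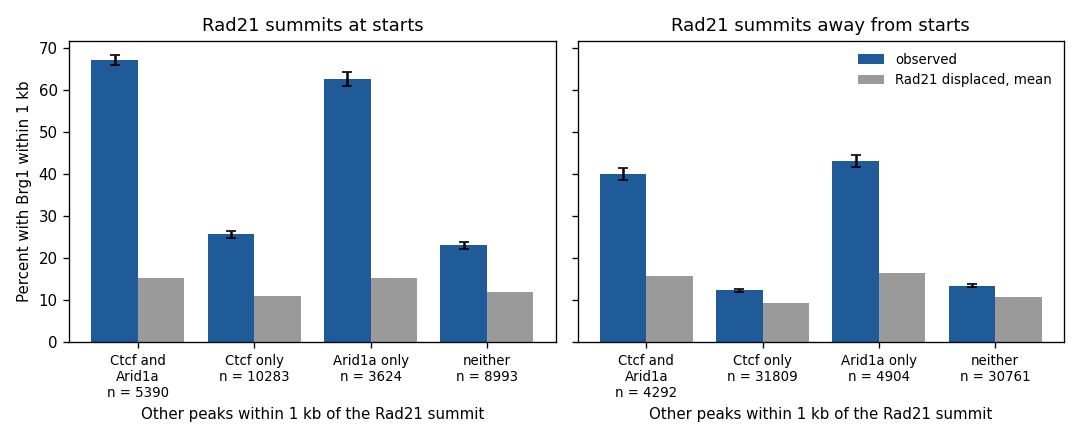
Percent of Rad21 summits with Brg1 within 1 kb, by whether Ctcf or Arid1a summits lay within 1 kb, at starts (left) and away from starts (right). Blue bars with 95% Wilson intervals are observed. Grey bars, labelled Rad21 displaced, are the mean after the Brg1 list was moved. Classes with Arid1a reach 62.7% and 67.1% at starts and up to 43.0% away, above the classes without it.

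The comparison looked different from the Brg1 side. Away from starts 45.5% of the shared but 7.18% of the unshared Brg1 summits had Ctcf within 1 kb (displaced 14.2% and 9.31%), so Brg1 sites without Rad21 were also mostly without Ctcf. A split by Rad21 brings Ctcf with it, since 50.3% of all Rad21 summits away from starts had Ctcf within 1 kb. H3K27me3 was at 4.86% of shared and 4.12% of unshared Brg1 summits at starts (displaced 7.93% and 7.02%), and at 4.13% and 2.97% away. For Rad21 it was at 5.19% of shared and 16.2% of unshared summits at starts (displaced 8.06% and 12.5%), and at 4.45% and 14.2% away (displaced 6.19% and 12.4%). WT H3K9me3 summits, called from a heterochromatin mark, were also near 45.4% of the shared and 26.4% of the unshared Rad21 summits at starts, with displaced shares of 21.0% and 19.2%. With all summits near H3K9me3 left out of both lists, the ratios over displaced positions were 3.46 at starts and 1.87 away, at least as large as with them, while the genes with a pair at the start fell from 6026 to 3022.

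Like pairs of proteins gave a scale for these ratios, as values of single libraries whose differences were not tested. Rad21 near Ctcf reached 55.4% at starts and 50.3% away, ratios of 3.41 and 4.05, so this pair was about as dense away from starts as at them. Rad21 near Arid1a had ratios of 2.92 and 1.37, and Ctcf near Brg1 of 2.70 and 1.29. Brg1 near Arid1a, which belong to the same complex, had 3.40 and 1.73. Brg1 with Rad21 had 2.98 and 1.54, as given above.

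The 10 genes with the highest pair at the start, ranked by the weaker of the 2 −log10 q, were Sept11, Ddit4, Atp5g2, Hexim1, Gtf3c6, Snapc5, Azin2, Actb, Midn and H2afx. At Sept11, which encodes a cytoskeletal septin, the Brg1 peak had a −log10 q of 13.2 and the Rad21 peak of 14.1, 157 bp apart. At Ddit4, a stress-induced inhibitor of mTORC1 signalling, they were 12.2 and 22.6, at Hexim1, an inhibitor of the elongation factor P-TEFb, 11.3 and 17.8, and at Midn 10.4 and 11.2. At Azin2, an antizyme inhibitor, the summits were 10 bp apart, with 13.0 for Brg1 and 10.6 for Rad21. Gtf3c6, a subunit of the RNA polymerase III factor TFIIIC, had 11.1 and 27.8, Snapc5, of the snRNA activating complex, 12.8 and 10.6, and Atp5g2, a subunit of ATP synthase, 11.9 and 39.2. Actb, which encodes beta-actin, carried the highest Brg1 peak of the 10, at 27.8, in an intron 644 bp downstream of the start, with a Rad21 peak of 10.5 a further 322 bp downstream. H2afx, which encodes the histone variant phosphorylated at DNA breaks, had 10.2 and 19.5. In 9 of these 10 genes both summits were downstream of the start, and at Gtf3c6 both were upstream.

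Gene classes differed widely in how many members carried a pair at the start, read against the 29.0% of all protein-coding genes. The highest shares were in growth and stress response genes. Of 24 Ras-MAPK targets and feedback genes 19 (79.2%, 59.5 to 90.8) carried a pair, as did 22 of 28 immediate early and AP-1 genes (78.6%, 60.5 to 89.8) and 14 of 19 p53 and cell cycle genes (73.7%). Hippo-YAP and TGF-beta targets had 17 of 24, actin cytoskeleton and adhesion genes 16 of 24, NF-kB pathway genes 15 of 23, and EMT and extracellular matrix genes 16 of 26. With Rad21 displaced, the pair was found at 7.86% of all genes, and these lists had means between 13.2% and 25.4%. The ratio over displaced positions was 3.68 for all genes. It was larger for the p53 (5.60), Ras-MAPK (5.59) and NF-kB (4.05) lists and smaller for the EMT (3.48), Hippo-YAP (3.40), immediate early (3.14) and actin (2.62) lists. Displaced ranges were wide, at 0 to 41.7% for the Ras-MAPK, 5.26 to 21.1% for the p53 and 3.85 to 26.9% for the EMT list. With 19 to 28 genes per list, these ratios cannot order the lists. Median CpG ratios were 0.78 for the Ras-MAPK, 0.76 for the immediate early, 0.65 for the EMT and 0.57 for the NF-kB genes, against 0.57 for all genes, and the part of CpG content in their shares was not tested. Without the summits near H3K9me3, in an alternative added after seeing the data, the Ras-MAPK list fell to 9 of 24 (37.5%), the immediate early list to 8 of 28 (28.6%) and the p53 and cell cycle list to 3 of 19 (15.8%), against 14.5% of all genes.

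**Figure D4:**
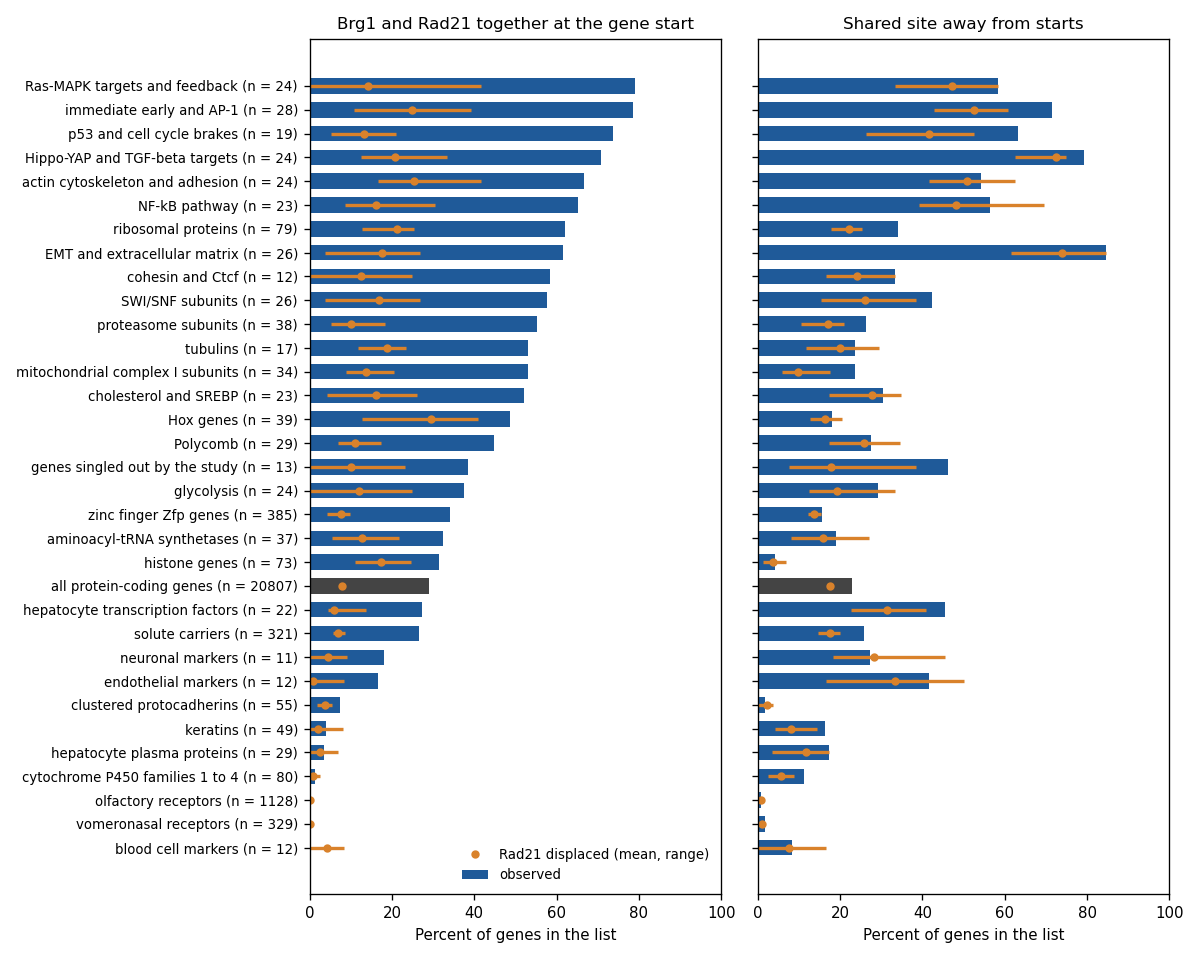
Percent of the genes of each list with a Brg1 and Rad21 pair at the start (left) and with a shared site away from starts (right), lists ordered by the left panel. Blue bars are observed, the dark bar is all 20807 genes (29.0% and 23.0%), and orange points and lines are the mean and range over 10 displacements of Rad21. Ras-MAPK and immediate early genes lead at starts with 79.2% and 78.6%, and on the right the displaced values lie close to many bars.

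Among the immediate early genes, Gadd45b, a growth arrest and stress gene, had a Brg1 peak of −log10 q 10.2 and a Rad21 peak of 96.3, placed 120 bp downstream and 847 bp upstream of the start. Myc, the growth-driving transcription factor, carried its pair upstream, with Brg1 at 7.56 and 1394 bp and Rad21 at 37.8 and 1952 bp, over the Ctcf core printed above. Jund, an AP-1 subunit, had 7.21 and 8.19. Of the Ras-MAPK genes, Dusp6, the ERK phosphatase, had 9.78 for Brg1 and 14.2 for Rad21, and the EGF receptor ligands Ereg and Hbegf had 6.59 and 10.4, and 7.66 and 6.56. Among matrix genes, Fn1, which encodes fibronectin, had its 2 summits 4 bp apart at 9.27 and 9.66, and Col1a1, the type I collagen chain, had 7.04 and 74.3, both in introns of the gene. Cdh2, N-cadherin, had 5.96 and 18.7. The YAP and TGF-beta targets Ankrd1, Thbs1 and Ccn2 had Brg1 at 6.95, 4.98 and 4.68 and Rad21 at 5.22, 58.4 and 10.9.

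Pairs were also found at stress and inflammatory genes. Gadd45a had 7.45 and 11.5, Rbl1, a relative of the retinoblastoma protein, 5.21 and 5.69, and Trp53, which encodes p53, 4.71 and 13.5. In the NF-kB list, the cytokine gene Il6 had 6.65 and 9.77, the inhibitor Nfkbia 5.21 and 9.77, and the chemokine gene Ccl2 4.41 and 3.94, its summits 24 bp apart. In the actin list Ezr, which encodes the membrane linker ezrin, had 6.35 and 7.90 and the tropomyosin gene Tpm4 6.11 and 6.95.

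Several housekeeping classes also lay above the share of all genes. Their ratio over displaced positions was 5.53 for proteasome and 3.83 for mitochondrial complex I subunits, against 3.68 for all genes. It was smaller for ribosomal proteins (2.92), tubulins (2.81) and cholesterol synthesis and SREBP genes (3.24). Displaced ranges were wide here too, at 5.26 to 18.4% for proteasome and 12.7 to 25.3% for ribosomal protein genes, so these ratios do not order the lists. Ribosomal protein genes carried a pair at 49 of 79 starts (62.0%, 51.0 to 71.9; displaced 21.3%), led by Rpl26, Rpl10a and Rpl5, whose weaker peaks had −log10 q of 5.90, 5.19 and 5.12. Proteasome subunits had 21 of 38, led by Psmb10 (5.92 and 5.47), mitochondrial complex I subunits 18 of 34, with the summits of Ndufa13 5 bp apart, and tubulins 9 of 17, where Tuba1b had 15.3 and 8.28. Cholesterol synthesis and SREBP genes had 12 of 23, among them the fatty acid synthase gene Fasn (10.8 and 4.44), the demethylase gene Cyp51 (7.56 and 4.93) and the SREBP retention factor Insig1 (8.16 and 3.88). Near or below the 29.0% of all genes were glycolysis genes with 9 of 24 (37.5%, 21.2 to 57.3), led by Pkm, pyruvate kinase (8.53 and 5.75), and aminoacyl-tRNA synthetases with 12 of 37 (32.4%, 19.6 to 48.5), led by Ears2 (5.12 and 5.79). Solute carriers had 85 of 321 (26.5%, 22.0 to 31.6), led by the amino acid transporter Slc38a2 (9.62 and 16.2).

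Clustered gene families showed that single occupancy need not give a pair. Histone genes had Brg1 at 65 of 73 starts but Rad21 at 29, and a pair at 23 (31.5%, 22.0 to 42.8). Clustered protocadherins were the reverse, with Rad21 at 23 of 55 starts, Brg1 at 7 and a pair at 4. Hox genes, the homeobox genes of body axis patterning, had Rad21 at 31 and Brg1 at 24 of 39 starts and a pair at 19 (48.7%), but with Rad21 displaced the pair was still found at 29.5%. Polycomb genes had 13 of 29, with Ezh2, the H3K27 methyltransferase, at 8.40 and 5.38. Zfp zinc finger genes had 131 of 385 (34.0%, 29.5 to 38.9), near the share of all genes. Neighbouring histone, Hox and head-to-head genes can count the same pair more than once, as did Hist2h2ab and Hist2h2ac.

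Genes for the secreted and metabolic products of hepatocytes were largely without a pair, while hepatocyte transcription factor genes lay near the share of all genes. Of 29 plasma protein genes 1 carried it (3.45%, 0.611 to 17.2), Apoh, which encodes beta-2-glycoprotein I, with 5.07 for Brg1 and 9.46 for Rad21 9 bp apart. Neither protein was listed at 18 of the 29 starts, among them those of Alb and Serpina1a, and Apob had 3 Rad21 summits and no Brg1. Cytochrome P450 genes of families 1 to 4 had a pair at 1 of 80 starts, Cyp2u1. The starts of these lists are CpG-poor, with median CpG ratios of 0.21 and 0.13, in the class of starts where 4.54% of all genes had a pair. Of 22 hepatocyte transcription factor genes 6 carried a pair (27.3%, 13.2 to 48.2), including Xbp1 (7.87 and 17.8), a factor of the secretory stress response, Gata6 (6.87 and 20.6), Foxa2 (4.41 and 9.53) and Cebpa (3.10 and 17.4), whereas the start of Hnf4a, the central factor of hepatocyte identity, had no summit of either. H3K27me3 was listed at 14 of these 22 starts, and at 5019 of 20807 over all genes. Peak lists measure no transcript, so the hepatocyte label itself could not be checked from them.

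Markers of other cells carried few pairs, read against the 29.0% of all genes. No blood cell marker of 12 carried a pair at the start, which allows a share of up to 25% by the rule of 3 counts. Endothelial markers had 2 of 12 (16.7%, 4.70 to 44.8), Kdr and Flt1, and neuronal markers 2 of 11 (18.2%, 5.14 to 47.7), Map2 and Slc17a7. These intervals span the share of all genes. Keratins had 2 of 49 (4.08%, 1.13 to 13.7), which were Krt8, a keratin of simple epithelium (3.16 and 3.98), and Krt80 (5.25 and 3.27). Of the stellate cell markers, Col1a1 carried a pair, as given above, whereas Pdgfrb and Des had Brg1 alone and Lrat had neither. Among cholangiocyte markers, Krt19 had summits of both at the start but more than 1 kb apart, Sox9 had Brg1 alone, and Epcam and Spp1 had neither. Olfactory receptor genes had a pair at 1 of 1128 starts, Olfr56, and vomeronasal receptor genes at 0 of 329, which allows up to 0.912%. Median CpG ratios were 0.20 for blood, 0.36 for endothelial and 0.55 for neuronal markers and 0.32 for keratins, against 0.57 for all genes. They were 0.11 and 0.09 for olfactory and vomeronasal receptor genes, and the part of CpG content in these shares was not tested.

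Of the genes for the SWI/SNF complex, 15 of 26 (57.7%, 38.9 to 74.5; displaced 16.9%) carried a pair at the start. These included all 3 ARID subunits Arid1a (4.21 and 2.78), Arid1b (5.96 and 6.25) and Arid2 (4.94 and 6.68), the core subunits Smarcb1, Smarcc1, Smarcc2 and Smarcd1, and the alternative ATPase Smarca2 (4.21 and 7.33). The remaining members with a pair were Bicra, Bicral, Bcl7a, Bcl7b, Bcl7c, Dpf2 and Ss18. Smarca4, the gene of Brg1 itself, had 2 Brg1 summits and 0 Rad21 summits at its start, as had Smarcd3 and Pbrm1, and Brd9 had 1 Brg1 summit and no Rad21. Rad21 without Brg1 was found at Brd7, Dpf1, Phf10, Smarcd2 and Smarce1, and Actl6a and Dpf3 had neither. A shared site away from starts was given to 11 of the 26 genes (42.3%, displaced 26.2%). Among them was Smarca4, with 2 shared Brg1 summits, the strongest 3177 bp from its start with 3.16 for Brg1 and 2.72 for Rad21.

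Cohesin and its partners gave 7 of 12 (58.3%, 32.0 to 80.7). Pds5a and Pds5b, which regulate the release of cohesin, carried Rad21 peaks of 34.9 and 32.1 with Brg1 at 6.64 and 2.81. Smc3, the ring subunit, had 5.79 for Brg1 and 14.5 for Rad21, 657 bp apart and on opposite sides of the start, with the Sp motif under Brg1 in the sequence printed above. The loader Nipbl had 3.66 and 7.06, Ctcf 2.12 and 23.4, Esco1 3.53 and 6.31, and Rad21 itself, the lowest of the list, 1.47 and 2.15. Mau2 had Brg1 alone, Stag1, Wapl and Esco2 had Rad21 alone, and Cdca5 had neither.

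Of 13 genes named in the study, which hold the proteins under study (Arid1a, Smarca4, Ctcf and Rad21) and genes the study picked on these cells, 5 carried a pair (38.5%, 17.7 to 64.5), an interval that spans the 29.0% of all genes. With a −log10 q of at least 3 it was 1 of 13 (7.69%), against 13.9% of all genes. The 5 were Arid1a, Atg10 (4.49 and 5.47), Ctcf, Plcb4 (2.67 and 7.33) and Rad21. At Atg10, an autophagy gene, the Rad21 summit lay 12 bp upstream of the start and the Brg1 summit 786 bp upstream. Pmp22, which encodes a membrane protein of myelin, had no summit of either at its start but 3 shared Brg1 summits away, the strongest with 3.37 for Brg1 and 4.01 for Rad21, 13834 bp from the start. Gsc, Six2, Hoxd11 and Cd83 had neither protein at the start and no shared site away, and Cdh5 had 1 Rad21 summit. Mia had Brg1 alone at the start and 1 shared summit away.

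Away from starts, shared Rad21 summits lay in introns (53.2%), between genes (40.6%) and in exons (6.16%), against 47.8%, 46.6% and 5.55% of the unshared ones. Unshared Brg1 summits were the most distant, with 31.7% over 100 kb from a protein-coding start against 17.8% of shared ones. The excess over displaced positions did not simply fade with distance. The ratio was 3.72 within 500 bp of a start (46.9% of Rad21 summits with Brg1) and 2.32 from 500 bp to 2 kb, reached a low of 1.43 from 5 to 10 kb and was 2.20 over 100 kb, where 11.7% (10.4 to 13.3) of 1933 Rad21 summits had Brg1 against 5.34% when displaced.

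The highest pairs away from starts lay near Mrpl45, Ier5l, Cxxc5, Ptbp1, Med13l, Ankrd1, Ccdc65, Mon2, Rpl19 and Zfp516, taking the nearest protein-coding start at any distance. The pair 6036 bp upstream of Mrpl45, a mitochondrial ribosomal protein gene, had 13.9 for Brg1 and 30.2 for Rad21, 725 bp apart, with a Ctcf summit of 58.2 near it. Distances of Ctcf and Arid1a here are from the Rad21 summit. The pair near Ankrd1, a YAP target, was 182 bp apart at 7.90 and 21.3 and lay 8957 bp downstream of the start, with Ctcf at 1 bp and Arid1a at 5 bp. Near Rpl19 the summits were 54 bp apart at 7.58 and 15.8, and Ctcf and Arid1a each lay 36 bp off. Near Ccdc65 they were 74 bp apart at 7.78 and 52.9, with a Ctcf peak of 124 at 3 bp. Near Ier5l, Cxxc5 and Zfp516 a Ctcf peak of 40.4 to 89.5 also lay within 141 bp, whereas the Mon2 pair, 163559 bp from that start, had only a Ctcf peak of 4.87 at 420 bp, the Ptbp1 pair a Ctcf peak of 18.6 at 902 bp, and the Med13l pair had no Ctcf within 1 kb.

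In all, 4777 genes (23.0%) were the nearest protein-coding gene, within 100 kb, of a shared site away from starts. Of the genes with a pair at the start 36.3% also had one, against 17.5% of the others. The most shared Brg1 summits fell to Hmga2, a chromatin protein gene of mesenchymal and tumour cells, with 21, followed by Irf2bp2 and Myh9, non-muscle myosin, with 15 each and Csf1, the macrophage growth factor, and Rnd3 with 14 each. At Hmga2 the strongest pair had 3.80 and 4.54, at Csf1 7.42 and 7.90, and at Rnd3 7.56 and 3.80. Zfp516 also had 14. Such counts also grow with the stretch of sequence nearest to a start and with local peak density, and no displaced count was made for single genes.

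The growth and matrix lists were high away from starts too, but here the displaced values were also high. EMT and extracellular matrix genes had a shared site in 22 of 26 (84.6%, 66.5 to 93.9) and 73.8% (range 61.5 to 84.6) with Rad21 displaced. Hippo-YAP and TGF-beta targets had 19 of 24 (79.2%) against 72.5%, immediate early genes 20 of 28 (71.4%) against 52.5% (range 42.9 to 60.7), Ras-MAPK genes 14 of 24 (58.3%) against 47.1%, and actin genes 13 of 24 (54.2%) against 50.8%. For all genes the values were 23.0% and 17.5%, a ratio of 1.31. The ratios over displaced positions were under that of all genes for EMT genes (1.15), Hippo-YAP targets (1.09), actin genes (1.07) and Ras-MAPK genes (1.24). For immediate early genes the ratio was 1.36. The p53 and cell cycle list had 12 of 19 (63.2%) against 41.6% (range 26.3 to 52.6), a larger ratio of 1.52. NF-kB pathway genes had 13 of 23 (56.5%) against 48.3%, a ratio of 1.17. The number of summits around these genes and the length of sequence nearest to their starts were not measured. Complex I subunits (8 of 34, ratio 2.42), cytochrome P450 genes (9 of 80, ratio 2.0) and keratins (8 of 49, ratio 2.0) had few shared sites but larger ratios, on counts too small to order. Hepatocyte transcription factor genes had 10 of 22 (45.5%; displaced 31.4%), among them Ppara, the fatty acid oxidation factor, with 11 shared Brg1 summits and a strongest pair of 3.93 and 59.9, over the Ctcf core printed above. Plasma protein genes had 5 of 29, among them Apoa1 with 5 summits and Ahsg with 3.80 and 24.3.

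Single genes of these lists showed the distal pairs in detail. Myc had 6 shared Brg1 summits away from starts, the strongest with 6.74 and 7.90 at 6673 bp, and Dusp6 had 8, with 6.98 and 9.77 at 59012 bp. Ccn2 had 5, the strongest with 4.41 and 22.8 and the summits 37 bp apart over a Ctcf core, 35370 bp from the start. Btg1, an antiproliferative gene, had 10, the strongest with 4.98 and 4.18 at 12070 bp over an AP-1 motif. Tnfaip3, an inhibitor of NF-kB signalling, had 7, and Fn1 had 9. Krt18, the partner keratin of Krt8, had neither protein at its start and 1 shared summit 2484 bp away with 5.96 and 7.14.

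The DNA under the summits was searched for 13 motifs in 300 bp around each summit, on both strands, with the positions 10 kb to either side as background. Beside the Ctcf core, a long consensus that only close matches meet, the letters searched were TGANTCA for AP-1, GGAATGT for Tead, CCGGAAGT for Ets, GGGGCGGGG for Sp, GCGCATGCG for Nrf1, AAGATGGCG for Yy1, TGACGTCA for Creb, TGTTTAC for Foxa, CAAAGTCCA for Hnf4a, TTGCNNAA for C/EBP, AGCCAAT for NF-Y and TGTGGTTT for Runx, and matches of different motifs could overlap. At starts, shared Brg1 summits held the Ets motif in 2.09% (displaced 0.292%), against 0.730% of unshared ones, the Sp motif in 6.35% (displaced 1.04%) against 2.03%, and the Nrf1 motif in 0.923% (displaced 0.0801%) against 0.277%. Yy1 and Creb were at 0.999% and 0.801% (displaced 0.240% and 0.222%). These letters are found in CpG-rich promoters, and the median GC content was 53% around shared and 44.0% around unshared Brg1 summits at starts.

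Away from starts the picture was another. AP-1 letters were found at 13.8% (13.2 to 14.4) of the shared and 11.4% (11.1 to 11.6) of the unshared Brg1 summits, over displaced shares of 8.65% and 9.13%, and at 13.4% of the shared but 9.27% of the unshared Rad21 summits (displaced 8.94% and 8.73%). Tead letters were at 5.39% of shared Brg1 summits (displaced 4.08%). The Ctcf core was at 5.18% (4.80 to 5.60) of shared and 6.41% (6.21 to 6.60) of unshared Rad21 summits (displaced 0.261% and 0.270%), and at 1.5% (1.29 to 1.73) of shared but 0.0790% (0.0576 to 0.108) of unshared Brg1 summits (displaced 0.269% and 0.129%). Foxa letters (4.37%, displaced 4.50%) and Hnf4a letters (0.453%, displaced 0.492%) at shared Brg1 summits lay near the displaced share, and C/EBP letters were at 13.2% (12.6 to 13.8) of shared and 14.5% of unshared Brg1 summits (displaced 11.8% and 13.4%).

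Summits were spread unevenly over chromosomes. Brg1 had 4.95 summits per Mb on chromosome 14 and 7.89 on chromosome 13, but 67.3 on chromosome 19, and Rad21 had 15.0, 16.2 and 69.8. The share of Rad21 summits with Brg1 at starts went with this density, from 14.5% on chromosome 14 to 48.3% on chromosome 19 and 49.6% on chromosome 18, and so did the displaced share, from 2.51% to 20.9%. The ratio was 2.31 on chromosome 19 and 6.74 on chromosome 13 at starts, and between 1.41 (chromosome 11) and 2.49 (chromosome 14) away. It was above 1 on every autosome. Genes on chromosome 14 had a pair at the start in 6.87% of cases and those on chromosome 19 in 43.1%, so that members of a list on chromosomes 13 and 14, such as Pbrm1, Brd9, Wapl and Esco2, came from a chromosome with few Brg1 summits. Copy number of the line was not measured in the lists used, and its part in these densities was not tested.

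**Figure D5:**
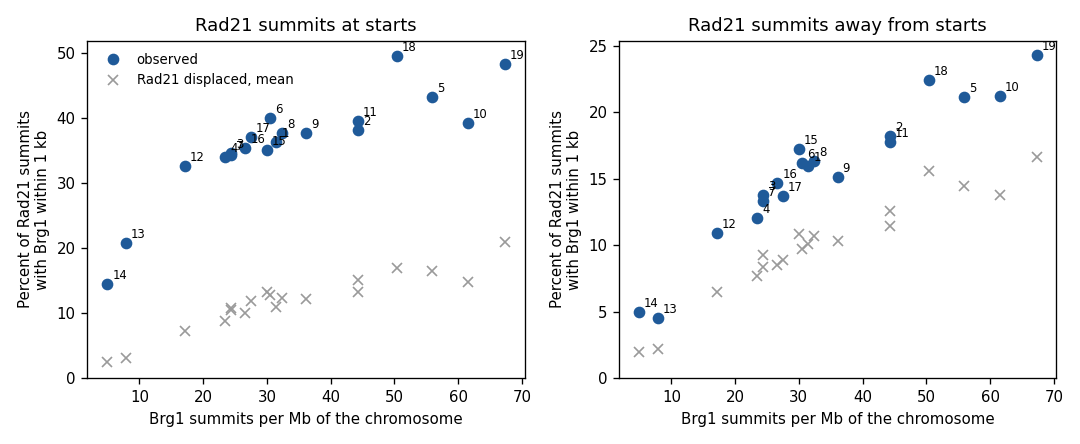
Percent of Rad21 summits with Brg1 within 1 kb on each autosome (numbered points) against the number of Brg1 summits per Mb, at starts (left) and away from starts (right). Blue points are observed. Grey crosses, labelled Rad21 displaced, are the means after the Brg1 list was moved. Both go up with Brg1 density, and every observed point lies above its displaced mean, from 14.5% over 2.51% on chromosome 14 to 48.3% over 20.9% on chromosome 19 at starts.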

How the data were processed

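ChIP-seq was carried out with antibodies against Brg1, Rad21, Ctcf, Arid1a, H3K27me3 and H3K9me3 in WT AB17 cells, with 1 library per antibody. Of 10 samples in the series, 6 peak lists of WT cells were used here, while the 2 lists of KO cells were not used and the 2 inputs entered only as background. Per the study's methods, the authors aligned reads to mm10 with Bowtie2 and filtered them with SAMtools and Picard. Peak calling used MACS2 with its default settings, and the matching input served as background. Versions are not given in the sources used here. The deposited lists give each summit with a −log10 q-value assigned by the authors' MACS2 run, read as such because no value lay under 1.30. Depth, peak width and fold enrichment were not analysed here, and a deeper library lists more peaks.

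Summits on autosomes were annotated with GENCODE vM21 (125891 transcript starts, 20807 protein-coding genes). None lay beyond a chromosome end of GRCm38. A partner was a summit of the other list within 1 kb. The background was the mean over 10 displacements of the partner list by 10 to 50 kb. This keeps regional density but not the nearness of the partner list to starts. A ratio is the observed over the displaced share, and shares have 95% Wilson intervals. For counts per gene, a site away from starts was given to the nearest protein-coding start within 100 kb. The counting was tested on simulated lists with planted partners. No test across samples was possible with 1 library per antibody.

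Genes were named by rule: the 10 highest pairs at starts and away (by the weaker −log10 q), the 3 and 2 highest per list, all SWI/SNF, cohesin and study genes, the 5 genes with most distal sites, and cell type markers. The members, the 32 gene lists and the rule were chosen with earlier results of these data known. The alternatives were limits of 500 bp and 2 kb, −log10 q of at least 3, a 1 kb start window, equal list lengths, no repeat-masked summits, no summits near H3K9me3, merged neighbours, 10 kb displacement only, and no densest chromosomes. Python 3.11.15, numpy 2.4.6, pandas 2.3.3, scipy 1.17.1 and pysam 0.24.0 were used.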

Additional observations from a re-analysis of the deposited data

Results flagged for a closer look

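Chromosome X, which the autosomal comparison left out, also held shared sites. Of its 1487 Rad21 summits 54 (3.63%, 95% Wilson interval 2.79 to 4.71) had Brg1 within 1 kb, against 0.753% with the Brg1 list displaced by 10 to 50 kb. At starts 39 of 368 Rad21 summits were shared (10.6%), and away from starts 15 of 1119 (1.34%, displaced 0.769%). The Brg1 list held 273 summits on this chromosome, so these shares rest on few peaks. The signal stands out as 1 above the displaced level in data outside the comparison, and no control library without antibody was analysed here.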

How the results depend on the processing

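Of 58 values recomputed under 10 alternatives, 19 stayed within the interval of the original ratio or within 1.5 times the original count, and 39 moved. No ratio fell below 1, a change that the gene counts among these values could not show. The ratios are given in the order Rad21 at starts, Rad21 away, Brg1 at starts and Brg1 away, which were 2.98, 1.54, 2.94 and 1.58. They were 3.61, 1.77, 3.49 and 1.82 with a limit of 500 bp, and 2.30, 1.34, 2.33 and 1.36 with 2 kb. With a −log10 q of at least 3 they were 4.46, 1.79, 4.09 and 1.91, and the genes with a pair at the start fell to 2886 and those with a site away to 1804. A 1 kb start window gave 3.43, 1.59, 3.35 and 1.64. Lists of equal length gave 3.10, 1.57, 3.17 and 1.61. Without summits on repeat-masked bases they were 3.58, 1.69, 3.54 and 1.73. Without summits near H3K9me3 they were 3.46, 1.87, 3.41 and 1.92, with 3022 genes at starts. With 10 kb displacement only they were 2.77, 1.51, 2.86 and 1.53. Merging neighbours gave 2.88 for Brg1 at starts, and leaving out chromosomes 5, 10 and 19, the densest in Brg1, gave 3.12, 3.06 and 1.61 for Rad21 at starts, Brg1 at starts and Brg1 away. The causes of these moves were not tested.

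Gene lists were recomputed under settings chosen after seeing the data. Of 32 lists, 28 stayed on the same side of the share of all genes at starts with a −log10 q of at least 3, and 30 without H3K9me3 sites. Away from starts these counts were 25 and 29. Without H3K9me3 sites the p53 and cell cycle list fell from 14 to 3 of 19 at starts (15.8%, all genes 14.5%) and the immediate early list from 22 to 8 of 28 (28.6%). Hepatocyte transcription factor genes kept 6 of 22 at a −log10 q of at least 3, then above all genes (27.3% against 13.9%). No paired analysis was possible because each antibody had 1 library. Without replicates and read depth, spread between cultures is unknown, and a missing summit may be a peak under the threshold.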
